A study of Homo sapiens with 59 samples.

Results

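The aminoacyl-tRNA synthetases are the enzymes that load each tRNA with its amino acid. They were followed here across 59 RNA-seq libraries of A549, a human lung adenocarcinoma cell line, treated for 24 h with ethanol extracts of medicinal herbs. The 35 members were chosen by gene symbol: 19 genes of the cytosolic enzymes and 16 genes of the mitochondrial enzymes, out of 60675 genes in the deposited table. The rule names symbols only, but it was drawn up with earlier results of these data known. All 35 members passed the filter on low counts, with 18568 genes passing in all.

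The vehicle libraries (n = 3) came from cells given 0.1% DMSO, as the sample labels state. Every extract had 3 doses, called high, medium and low here. For Coptidis Rhizoma these were 110, 22 and 4.4 µg/mL, and for Zizyphi Fructus 500, 100 and 20 µg/mL, with n = 2 at each dose (replicates 2 and 3). Cells received Citri Unshius Pericarpium or Cimicifugae Rhizoma at 500, 100 and 20 µg/mL (n = 3 at each dose). Bupleuri Radix doses were 190, 38 and 7.6 µg/mL (n = 3 at each dose). Aconiti Lateralis Radix Preparata doses were 500, 100 and 20 µg/mL, with n = 3 at the high and low doses and n = 2 at the medium dose. The herbal formulas Yijung-tang (n = 2 per dose) and Banhasasim-tang (n = 1 per dose) were given at 500, 100 and 20 µg/mL. Per the series text, an extract with a 20% inhibitory concentration under 500 µg/mL had that concentration as its high dose, so high doses differ between extracts and were matched to toxicity for only some of them.

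Each synthetase attaches 1 amino acid to its tRNAs, and the charged tRNA carries that amino acid to the ribosome. Cytosolic translation and the separate translation system of mitochondria use mostly different genes for the same reaction, by convention with the suffixes 1 and 2. GARS1 and KARS1 serve both compartments from a single gene, EPRS1 charges both glutamate and proline tRNAs, and FARSA and FARSB are the subunits of 1 enzyme. Mitochondria charge their glutamine tRNA indirectly, with EARS2 and an amidotransferase that includes GATC. Several cytosolic enzymes sit in a multi-synthetase complex held together by AIMP1, AIMP2 and EEF1E1. When uncharged tRNAs or unfolded proteins accumulate, or mitochondria are stressed, kinases of the integrated stress response raise translation of the transcription factor ATF4. ATF4 acts on genes of amino acid synthesis and transport and on a subset of the cytosolic synthetases; here 12 of the 19 cytosolic members were listed as ATF4-linked (AARS1, CARS1, EPRS1, GARS1, IARS1, LARS1, MARS1, NARS1, SARS1, TARS1, WARS1 and YARS1) and 7 were not (FARSA, FARSB, HARS1, KARS1, QARS1, RARS1 and VARS1).

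The 59 libraries held 17214755 to 39751161 expected counts. Levels are given as CPM (expected counts scaled to a common library total) after TMM scaling, and a gene was called changed at an adjusted p below 0.05 in edgeR's quasi-likelihood test over all 18568 genes. Log2 fold changes carry their standard error (SE). The keratins KRT8 (2075.2 to 8547.9 unscaled CPM) and KRT18 (1648 to 4915.2) were present in all 59 libraries. So were the epithelial markers CDH1 (5.2 to 39.2) and EPCAM (2.47 to 8.77), at far lower levels. Of 7 markers of other cell types, the T cell gene CD3E was at 0 in all 59 libraries, PTPRC, PECAM1, VWF and DCN were at 0 in 33 to 50 of them and at most 0.168 unscaled CPM elsewhere, and CD68 (2.32 to 31.2) and COL1A1 (4.23 to 70.3) were present in every library. A group of 4 libraries stood apart on the first principal component of all genes: Citri Unshius Pericarpium high dose replicate 3 and medium dose replicate 3, and Cimicifugae Rhizoma low dose replicate 2 and medium dose replicate 2. Their scores were 107.03, 64.73, 91.92 and 41.02, against at most 15.51 in any other library, and they entered the shared estimate of spread, so counts of called members are also given without them. Descriptions in the labels carry a code whose first number differs between sets of extracts and from that of the vehicle libraries; its meaning is not given, and where a whole set differs from the vehicle, the set and an effect common to its extracts cannot be told apart. The labels do not say whether replicates are separate cultures, so p-values measure only the spread between these libraries. In bulk RNA, fewer cells of a type and less RNA per cell cannot be told apart.

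In the vehicle libraries the cytosolic enzymes lay above most mitochondrial ones per transcript length. KARS1, the lysyl enzyme, had the highest level, 110.8 ± 2.7 CPM per kb (SD, n = 3), followed by the methionyl enzyme MARS1 at 99.2 ± 1.96 and the isoleucyl enzyme IARS1 at 90.5 ± 2.64. GARS1 at 89 ± 2.82 CPM per kb did not differ from IARS1 beyond the spread. IARS2, which charges isoleucine tRNA in mitochondria, was the highest mitochondrial member at 65.2 ± 1 CPM per kb and ranked 8 of 35. The lowest cytosolic member was the cysteinyl enzyme CARS1 at 27.2 CPM per kb. At the bottom stood the mitochondrial alanyl, tryptophanyl and prolyl enzymes: AARS2 at 3.59 ± 0.107, WARS2 at 3.43 ± 0.0531 and PARS2 at 2.95 ± 0.402 CPM per kb. PARS2 had the widest spread of the 3.

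Coptidis Rhizoma is the rhizome known for the alkaloid berberine. Its high dose was compared with the vehicle to ask which genes respond to the extract. Of the 19 cytosolic members, 11 rose and 1 fell, and of the 16 mitochondrial members none rose and 2 fell. Over all genes tested, 12.6% were called, 6.41% higher and 6.14% lower. All 11 that rose belong to the 12 ATF4-linked enzymes, whose median log2 fold change was 0.65 (range 0.15 to 0.93). That list was drawn up with results of these data known, so the match between the list and the genes that rose is a description and no independent evidence. The 7 other cytosolic members had a median of -0.12 with 1 lower, the mitochondrial members a median of -0.1, and all genes tested a median of -0.01.

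**Figure D1:**
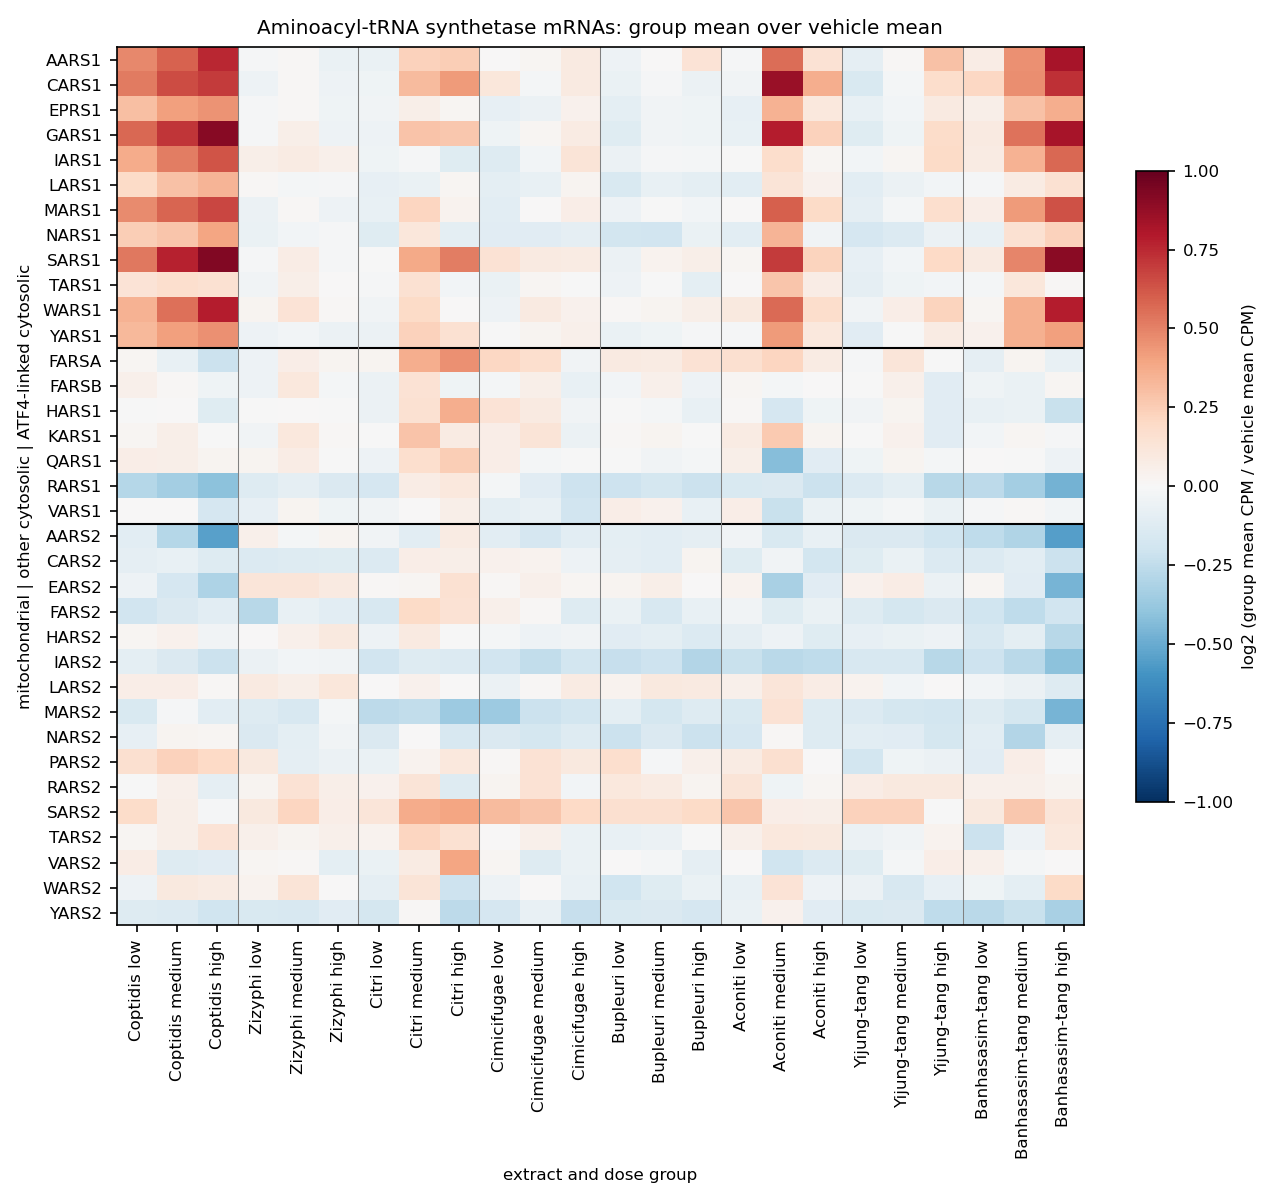
Log2 ratio of each group's mean CPM to the vehicle mean for the 35 members (rows) in the 24 treated groups (columns); horizontal lines separate the 12 ATF4-linked, the 7 other cytosolic and the 16 mitochondrial members. The warm block in the ATF4-linked rows spans the 3 Coptidis Rhizoma doses, the Aconiti Lateralis Radix Preparata medium dose and the Banhasasim-tang high and medium doses; Banhasasim-tang has 1 library per dose.

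The seryl enzyme SARS1 stood at 85.1, 83.7 and 87.8 CPM in the vehicle libraries and at 166.7 and 158.7 CPM in the high dose libraries, a log2 fold change of 0.93 ± 0.17 (edgeR adjusted p = 0.000148). GARS1, the glycyl enzyme, stood at 234.5, 241.7 and 226.9 CPM against 448.2 and 431.1 CPM, a change of 0.91 ± 0.12 (edgeR adjusted p = 1.09e-06). Every treated library lay far above every vehicle library for both genes. WARS1, the tryptophanyl enzyme that interferon also induces, went from 137.6, 132.2 and 130.6 CPM to 232.5 and 228.4 CPM (0.79 ± 0.13, edgeR adjusted p = 2.11e-05). AARS1, the alanyl enzyme, went from 300, 294.5 and 289.8 CPM to 498.7 and 496 CPM (0.75 ± 0.1, edgeR adjusted p = 1.15e-06). In these genes, too, the groups were well apart, with treated libraries within a few percent of each other.

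CARS1, the cysteinyl enzyme, measured 73.9, 71.2 and 74.2 CPM in the vehicle and 120.6 and 117.4 CPM at the high dose (0.7 ± 0.14, edgeR adjusted p = 0.000463). MARS1, which charges both initiator and elongator methionine tRNAs, measured 294.2, 287.5 and 282.8 CPM against 459.4 and 456.5 CPM (0.67 ± 0.12, edgeR adjusted p = 5.92e-05). IARS1 had the largest gain in CPM, from 426.2, 430.7 and 407.5 to 661.5 and 641.9 (0.63 ± 0.14, edgeR adjusted p = 0.000979). The vehicle and treated libraries of the 3 genes did not overlap. The tyrosyl enzyme YARS1 rose from 185.6, 180.6 and 180.7 to 258 and 241.9 CPM (0.46 ± 0.11, edgeR adjusted p = 0.00521). The glutamyl-prolyl enzyme EPRS1 (0.45), the asparaginyl enzyme NARS1 (0.39) and the leucyl enzyme LARS1 (0.34) made up the 11. Without the low-count filter the calls of NARS1 (edgeR adjusted p = 0.0556) and LARS1 (edgeR adjusted p = 0.125) were lost. That of YARS1 was lost without treated replicate 2, where its change was 0.43. The other rises kept their call under every alternative. The ATF4-linked member that was not called was the threonyl enzyme TARS1, at 0.15 (edgeR adjusted p = 0.384).

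Of the other cytosolic members, RARS1, the arginyl enzyme, fell (-0.41 ± 0.11, edgeR adjusted p = 0.00902). It went from 169, 170.2 and 174.1 CPM in the vehicle to 129.4 and 128.6 CPM. Over all extracts RARS1 lay below the lowest vehicle library in 52 of 56 treated libraries. The call for RARS1 was lost without either treated library, with an adjusted p of 0.103 without replicate 2 and 0.109 without replicate 3. KARS1 measured 224, 216.1 and 226.4 CPM in the vehicle and 224 and 219.2 CPM at the high dose, overlapping values with a log2 fold change of 0. The glutaminyl enzyme QARS1 (0.03), the valyl enzyme VARS1 (-0.17), the histidyl enzyme HARS1 (-0.12), FARSA (-0.21) and FARSB (-0.04) were not called either. Of the 7 enzymes of the multi-synthetase complex, 4 rose and 1 fell, so the complex did not move as a block, and none of its 3 scaffold genes was called (AIMP1 0.04, AIMP2 -0.13, EEF1E1 -0.02).

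Among mitochondrial members AARS2, the alanyl enzyme, fell from 13.5, 14.3 and 13.6 CPM to 9.78 and 9.21 CPM (-0.54 ± 0.12, edgeR adjusted p = 0.00161), the reverse of its cytosolic counterpart AARS1. EARS2, the glutamyl enzyme, fell from 55.6, 52.4 and 50.1 CPM to 44.2 and 40.8 CPM (-0.31 ± 0.08, edgeR adjusted p = 0.0039). Both calls were lost without replicate 3 of the treated group (adjusted p of 0.058 for AARS2 and 0.16 for EARS2). The low members WARS2 (9.67, 9.45 and 9.73 CPM against 10 and 10.3 CPM) and PARS2 (6.07, 6.8 and 7.94 CPM against 7.84 and 8.07 CPM) were not called. Of 13 mitochondrial translation factors and amidotransferase genes, the initiation factor MTIF2 rose (0.46 ± 0.08, edgeR adjusted p = 2.39e-05) and GATC, a subunit of the glutamine amidotransferase, fell (-0.26 ± 0.06, edgeR adjusted p = 0.0043). Over all genes tested 12.6% were called. EARS2 and GATC act in the same indirect route to mitochondrial glutamine tRNA, but the amidotransferase genes GATB (-0.25) and QRSL1 (0.12) were not called. At the Aconiti Lateralis Radix Preparata medium dose, where EARS2 was also lower, GATC was not called (-0.07, edgeR adjusted p = 0.547).

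**Figure D2:**
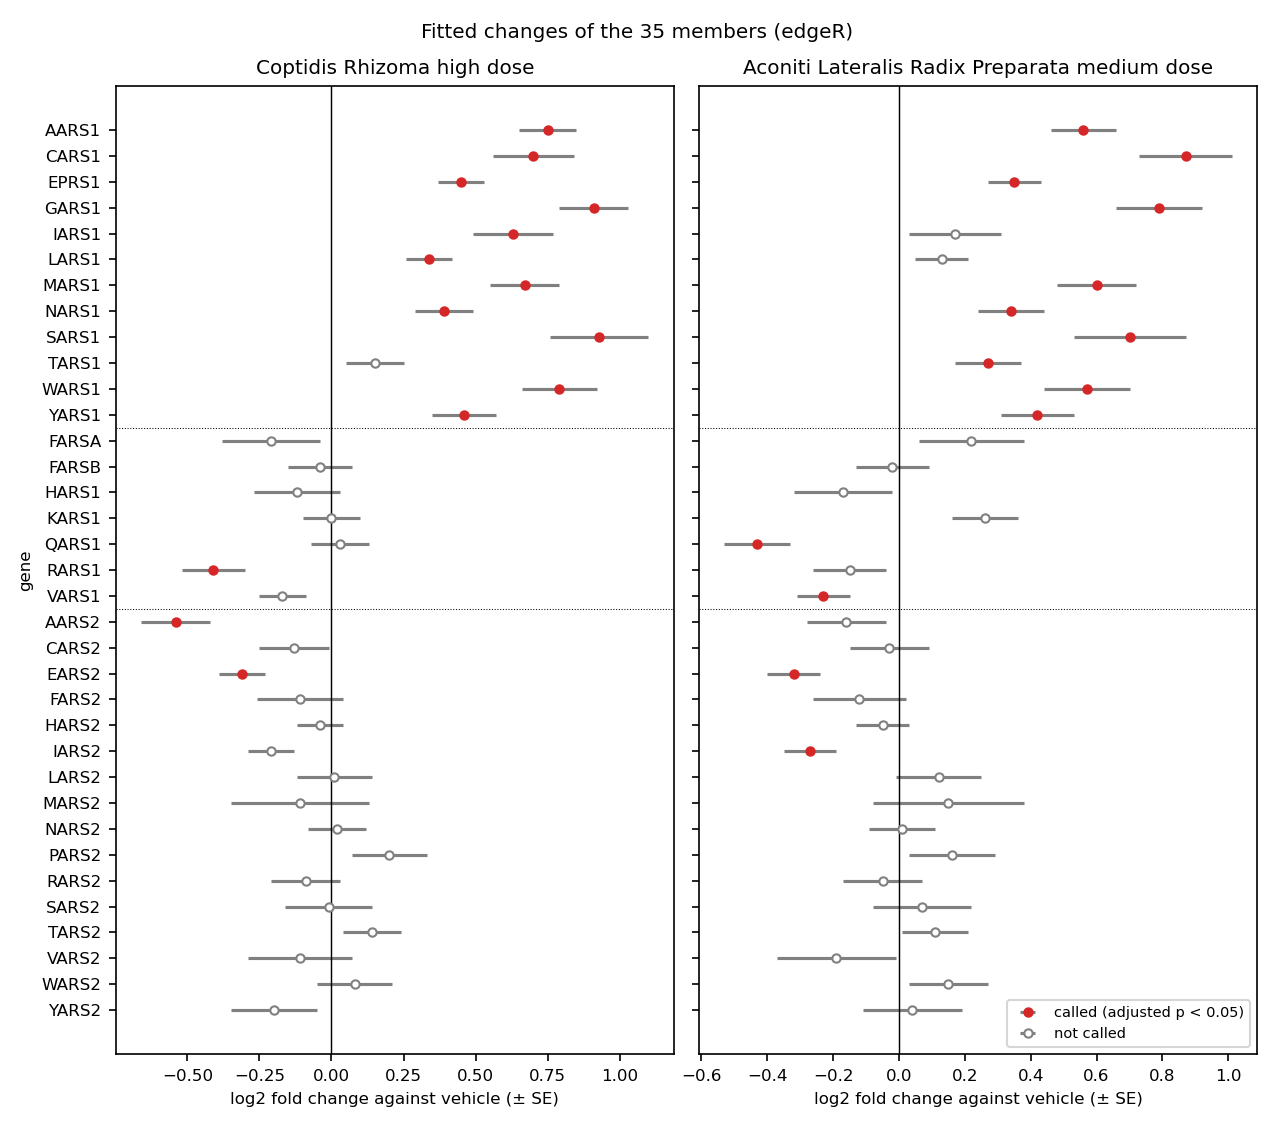
Log2 fold change against the vehicle for each of the 35 members, with bars of 1 SE, at the Coptidis Rhizoma high dose and the Aconiti Lateralis Radix Preparata medium dose; red marks members called at an edgeR adjusted p below 0.05. In each panel 14 members are red, and those on the positive side are all ATF4-linked.

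Other genes of the ATF4 pathway were read from a list of 27, ATF4 itself included, that holds no synthetase. This list, too, was chosen with earlier results of these data known, so its counts are a description and no independent evidence. At the Coptidis Rhizoma high dose 20 of the 27 rose and none fell, beside 12.6% of all genes called. Their median log2 fold change was 1.04. Without the 4 libraries that stood apart 23 rose and 2 fell, beside 27.9% of all genes called. STC2, a secreted glycoprotein, had the largest change (2.42 ± 0.27, edgeR adjusted p = 1.38e-08), from 28.2 ± 2.23 to 151.6 ± 3.71 CPM. The pseudokinase TRIB3 changed by 2.06 ± 0.18, the glutathione-degrading enzyme CHAC1 by 2.05 ± 0.31 and the mitochondrial folate enzyme ALDH1L2 by 2.00 ± 0.27. ASNS, which makes asparagine, changed by 1.28 ± 0.18. ATF4 mRNA itself was not called (0.36 ± 0.18, edgeR adjusted p = 0.232), nor was the tRNA exporter XPOT (0.56 ± 0.2, edgeR adjusted p = 0.0684). The amino acid transporter subunits SLC7A5 (-0.3) and SLC3A2 (-0.28) were not called and had negative values.

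Without the 4 libraries that stood apart, 15 members were called at this dose (11 cytosolic higher, 1 cytosolic lower, 3 mitochondrial lower, the added one being IARS2), beside 27.9% of all genes. The keratins KRT8 (-0.82, edgeR adjusted p = 0.0314) and KRT18 (-0.75, edgeR adjusted p = 0.0109) were lower at this dose. The other epithelial markers, CDH1 (-0.38) and EPCAM (0.24), were not called. The summed markers of other cell types were 37.2 to 38.3 unscaled CPM against 38.8 to 40.2 in the vehicle. Mitochondrial rRNA took 6.09% to 6.42% of counts at the high dose, 10.3% to 11.1% at the medium dose and 9.13% to 9.36% at the low dose of Coptidis Rhizoma, against 2.24% to 2.43% in the vehicle. Its part in the results was not tested.

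The sequence ATF4 binds, the C/EBP-ATF response element, was searched as TGATGNAA on both strands in the RefSeq promoter windows of GRCh38.p14, from 250 bases before to 50 bases after each gene's start. Windows were found for 30 of the 35 members; those of AARS2, LARS1, VARS1, VARS2 and YARS1 were not analysed here. The letters occurred in 7 of the 10 ATF4-linked members with a window (AARS1, CARS1, GARS1, IARS1, MARS1, NARS1 and TARS1), in 0 of 6 other cytosolic members and in 1 of 14 mitochondrial members (YARS2), beside 4.46% of all 27305 genes (3.62% of their 35116 windows). The ATF4-linked list was drawn up from knowledge of these genes, which includes such sites, so the split by list is not an independent result. The 30-base stretches are shown for the genes that moved together and for the 2 exceptions, TARS1 and YARS2, which hold the letters without a called rise at the Coptidis Rhizoma high dose. Each is written 5′ to 3′ on the gene's strand, with the match or its reverse complement in capitals.
AARS1, chr16:70289675-70289704, minus strand: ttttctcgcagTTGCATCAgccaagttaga
CARS1, chr11:3057407-3057436, minus strand: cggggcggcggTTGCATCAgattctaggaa
GARS1, chr7:30594834-30594863, plus strand: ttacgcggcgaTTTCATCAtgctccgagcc
IARS1, chr9:92293692-92293721, minus strand: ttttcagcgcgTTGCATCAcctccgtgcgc
MARS1, chr12:57488053-57488082, plus strand: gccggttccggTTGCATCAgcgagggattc
NARS1, chr18:57621804-57621833, minus strand: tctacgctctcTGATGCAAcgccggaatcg
TARS1, chr5:33440956-33440985, plus strand: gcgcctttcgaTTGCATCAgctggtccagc
YARS2, chr12:32756076-32756105, minus strand: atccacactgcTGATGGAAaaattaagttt

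Most of these share the core TGATGCAA, and GARS1 and YARS2 differ from it at the free position. SARS1 and WARS1, with 2 of the 3 largest changes, and EPRS1 had no match in their windows, which says only that these letters are not in that stretch. The MYC-bound E-box letters CACGTG occurred in IARS1 among the 16 cytosolic members with a window and in CARS2, EARS2 and MARS2 among the 14 mitochondrial ones, beside 8.77% of all genes (7.26% of windows). A match is a description of the letters, not evidence of binding.

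At the Coptidis Rhizoma medium dose 10 cytosolic members rose, none fell, and no mitochondrial member was called, beside 3.27% of all genes (1.76% higher, 1.51% lower). All 10 are ATF4-linked, and SARS1 (0.77, edgeR adjusted p = 0.00514), GARS1 (0.71, edgeR adjusted p = 0.000261), CARS1 (0.65), AARS1 (0.59) and MARS1 (0.58) changed most. SARS1 measured 145.5 and 145.8 CPM and GARS1 378.5 and 390.8 CPM, above all vehicle libraries and below both high dose libraries. The count fell to 4 without treated replicate 2 and to 3 without replicate 3, where the remaining library is assumed to vary like the other groups, and it was 14 without the 4 libraries that stood apart, beside 12.4% of all genes. At the low dose 2 members rose, AARS1 (0.48 ± 0.1, edgeR adjusted p = 0.0157) and GARS1 (0.57 ± 0.13, edgeR adjusted p = 0.0176), beside 0.447% of all genes (0.302% higher, 0.145% lower). AARS1 measured 420.2 and 402.7 CPM and GARS1 349.8 and 346.4 CPM there, all above the vehicle range. The ATF4-linked members had a median of 0.36 at the low dose, 12 of 12 with a positive sign, and 12 members had an unadjusted p below 0.05, as had 6.93% of all genes.

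The low dose count moved with the libraries and the fit. It was 0 without either treated library or without vehicle replicate 3 and 1 without vehicle replicate 1 or 2, and it was 10 without the 4 libraries that stood apart, beside 3.52% of all genes. DESeq2 called 5. A fit on only the vehicle and the 3 Coptidis Rhizoma doses called 14, among 2267 genes in all. Of the 27 ATF4 pathway genes 18 rose at the medium dose (median 0.84) and 11 at the low dose (median 0.59), where 19 rose without the 4 libraries that stood apart. The point estimates of SARS1, GARS1, AARS1, MARS1 and IARS1 were in the order low, medium, high dose. Between the high and the low dose no member was called with edgeR, beside 2.31% of all genes (0.932% higher, 1.38% lower). There, 7 members had an unadjusted p below 0.05, as had 11.3% of all genes, and DESeq2 called 1. A fit on only the 3 Coptidis Rhizoma doses called 18 members there, among 4342 genes in all. The lowest adjusted p was that of AARS2 (0.0796), WARS1 differed by 0.44 (edgeR adjusted p = 0.115), and GARS1 by 0.34. Without the 4 libraries that stood apart 5 members were called between these doses: IARS1 (0.27), SARS1 (0.41) and WARS1 (0.45) higher and AARS2 (-0.42) and EARS2 (-0.25) lower at the high dose, beside 9.05% of all genes.

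Zizyphi Fructus, the jujube fruit, shares its library code number and replicate numbers with Coptidis Rhizoma. No member was called at its high, medium or low dose or between its high and low dose, where 0% of all genes were called; no member had an unadjusted p below 0.05, against 1.35% to 2.68% of all genes, and DESeq2 called 0. The direct comparison of both extracts at their high doses uses no vehicle library, and the doses differ (110 against 500 µg/mL). Coptidis Rhizoma had 11 cytosolic members higher and 2 mitochondrial members lower than Zizyphi Fructus, beside 8.12% of all genes (4.1% higher, 4.02% lower). GARS1 (0.96), SARS1 (0.94), AARS1 (0.82), WARS1 (0.78) and CARS1 (0.75) led the 11, and AARS2 (-0.57, edgeR adjusted p = 0.00306) and EARS2 (-0.4, edgeR adjusted p = 0.000913) were the 2. Both of these calls were lost without Coptidis Rhizoma replicate 3 (adjusted p of 0.0738 and 0.0598) and without the low-count filter. RARS1 was not called in this comparison (-0.26, edgeR adjusted p = 0.211). Without the 4 libraries that stood apart it was lower with Coptidis Rhizoma (-0.24, edgeR adjusted p = 0.0131). RARS1 measured 150.1 and 159 CPM at the Zizyphi Fructus high dose, below the vehicle range. Of the 27 ATF4 pathway genes 20 were higher with Coptidis Rhizoma in the direct comparison. This comparison shares the Coptidis Rhizoma libraries with the one against the vehicle, so it is not a separate observation of them.

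**Figure D3:**
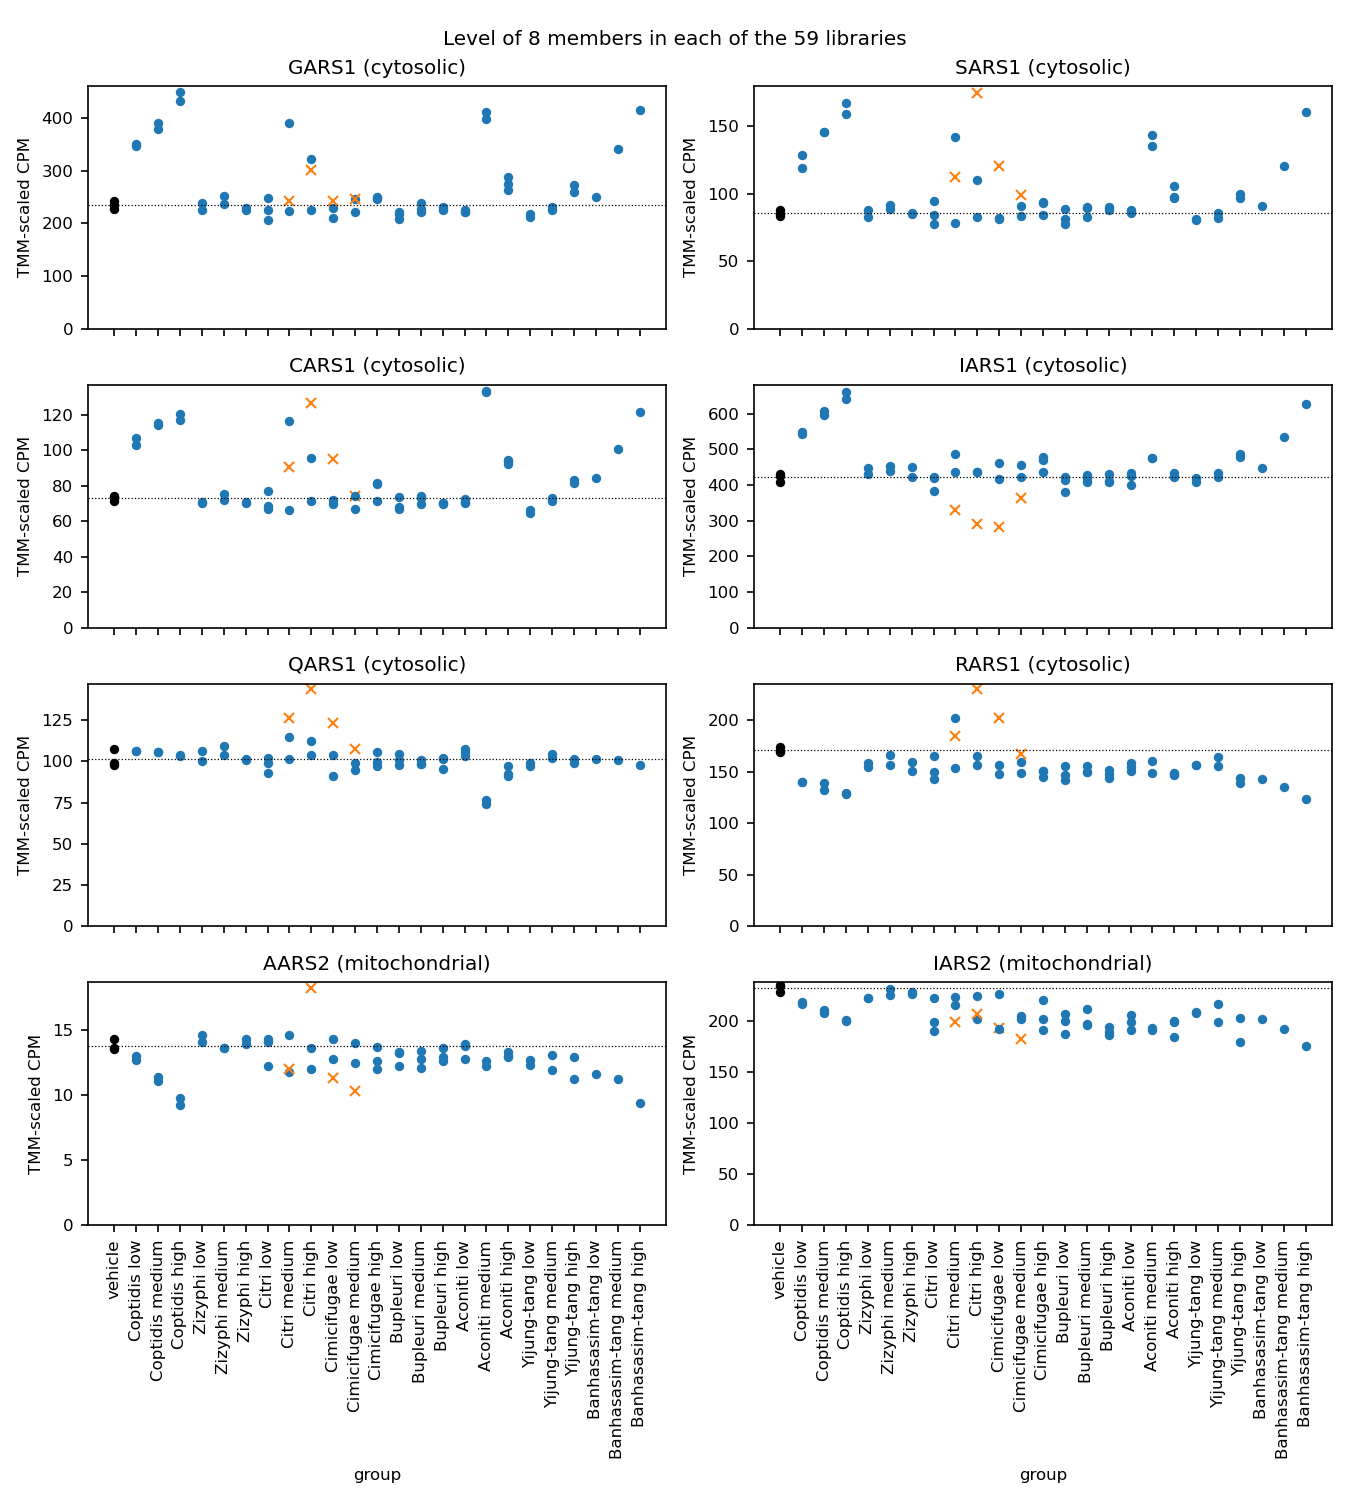
CPM of 8 members in each of the 59 libraries by group; black points are the vehicle libraries, the dotted line is the vehicle mean, and orange crosses are the 4 libraries that stood apart. GARS1, SARS1 and CARS1 lie above the vehicle in every Coptidis Rhizoma and Aconiti Lateralis Radix Preparata medium dose library, QARS1 is lowest at the latter, and IARS2 lies below the vehicle in nearly all treated libraries.

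Aconiti Lateralis Radix Preparata is processed aconite root. At its medium dose 10 cytosolic members rose, 2 fell, and 2 mitochondrial members fell, beside 17.5% of all genes (8.23% higher, 9.28% lower). The 10 again belong to the ATF4-linked list (median 0.49); the mitochondrial members and all genes tested each had a median of -0.01. CARS1 changed most, from 73.9, 71.2 and 74.2 CPM in the vehicle to 133.6 and 132.8 CPM (0.87 ± 0.14, edgeR adjusted p = 1.27e-05). GARS1 reached 410.6 and 398.1 CPM (0.79 ± 0.13, edgeR adjusted p = 7.92e-06) and SARS1 143.1 and 135.1 CPM (0.7 ± 0.17, edgeR adjusted p = 0.00269). These libraries lay above all vehicle libraries. MARS1 reached 437.9 and 436.8 CPM (0.6 ± 0.12, edgeR adjusted p = 0.000154), WARS1 198.4 and 197.7 CPM (0.57, edgeR adjusted p = 0.00111) and AARS1 438.1 and 428.6 CPM (0.56 ± 0.1, edgeR adjusted p = 0.000102). YARS1 stood at 247.3 and 242.1 CPM, 0.42 above the vehicle (edgeR adjusted p = 0.00664). EPRS1 (0.35), NARS1 (0.34) and TARS1 (0.27, edgeR adjusted p = 0.0465) also rose. The call of TARS1 was lost under 7 of 11 alternatives, among them the fit with a replicate block (edgeR adjusted p = 0.0593) and each vehicle library left out, and that of NARS1 under 3, among them each medium dose library left out. In the fit over all libraries IARS1 (0.17, edgeR adjusted p = 0.456) and LARS1 (0.13, edgeR adjusted p = 0.3), which charge the branched-chain amino acids isoleucine and leucine, were not called.

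QARS1, the glutaminyl enzyme of the multi-synthetase complex, fell at this dose from 98.8, 97.9 and 107.3 CPM in the vehicle to 76.4 and 74.4 CPM (-0.43 ± 0.1, edgeR adjusted p = 0.00113). VARS1 fell by 0.23 on the log2 scale, from 118.8, 116.8 and 119.3 CPM to 99.6 and 102.8 CPM (edgeR adjusted p = 0.031). In both genes the groups did not overlap, but the call of VARS1 was lost under 6 of 11 alternatives, among them each vehicle and each medium dose library left out. The mitochondrial EARS2 fell to 42.1 and 42.2 CPM (-0.32 ± 0.08, edgeR adjusted p = 0.00178) and IARS2 from 228.1, 234.6 and 233.9 CPM to 191.1 and 193.4 CPM (-0.27 ± 0.08, edgeR adjusted p = 0.0102). The call of IARS2 was lost without either medium dose library (adjusted p of 0.121 and 0.0918) and without the low-count filter. KARS1, at 273.9 and 259.9 CPM, lay above the vehicle range without being called (0.26, edgeR adjusted p = 0.0676). Of the 7 enzymes of the multi-synthetase complex, 2 rose and 1 fell, and none of the 3 scaffold genes was called.

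Of the 27 ATF4 pathway genes 23 rose at the Aconiti Lateralis Radix Preparata medium dose, with a median of 0.89, led by STC2 (2.67 ± 0.27) and the stress transcription factors ATF3 (2.44 ± 0.23) and DDIT3 (2.16 ± 0.24) and by CHAC1 (1.97 ± 0.31). ATF4 mRNA rose as well (0.76 ± 0.18, edgeR adjusted p = 0.00198), and so did XPOT (0.62 ± 0.2, edgeR adjusted p = 0.0291). MTIF2 was the single mitochondrial translation factor of 13 that was called (0.48 ± 0.08), beside 17.5% of all genes at this dose. The epithelial adhesion gene CDH1 (-2.54), EPCAM (-0.82) and KRT18 (-0.65) fell at this dose, while KRT8 was not called (-0.56). COL1A1 fell (-2.95) and the lysosomal protein gene CD68 rose (2.25). The part of these genes in the synthetase results was not tested. Mitochondrial rRNA took 2.15% to 2.64% of counts, against 2.24% to 2.43% in the vehicle. The count of 14 members was 9 without treated replicate 1. Without the 4 libraries that stood apart it was 18, beside 32.8% of all genes, and all 12 ATF4-linked members were then called higher, IARS1 (0.18, edgeR adjusted p = 0.011) and LARS1 (0.14, edgeR adjusted p = 0.0463) included.

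The medium dose of this extract stood further from the vehicle than its high dose. At the high dose 1 member was called, IARS2 (-0.26 ± 0.07, edgeR adjusted p = 0.0206), beside 4.65% of all genes (2.56% higher, 2.09% lower), and 6 of the 27 ATF4 pathway genes rose (12 rose and 2 fell without the 4 libraries that stood apart). The count of members was 0 without any 1 of the high dose or vehicle libraries and 3 without the 4 libraries that stood apart (CARS1 0.36, RARS1 -0.21 and IARS2), where 15% of all genes were called. In the direct comparison, GARS1 (0.55, edgeR adjusted p = 0.00262), CARS1 (0.51), AARS1 (0.41), MARS1 (0.41), WARS1 (0.4, edgeR adjusted p = 0.0492) and NARS1 (0.38) were higher and QARS1 (-0.31, edgeR adjusted p = 0.0382) was lower at the medium dose, beside 7.78% of all genes (3.14% higher, 4.64% lower). GARS1 measured 274.6, 287.7 and 263.5 CPM at the high dose, between the vehicle and the medium dose. The 7 members became 14 without the 4 libraries that stood apart, beside 20.3% of all genes, 1 without either medium dose library, and 4 and 3 without high dose replicates 2 and 3. At the low dose edgeR called 0 members (2 members and 6.54% of all genes with an unadjusted p below 0.05, DESeq2 0) beside 0% of all genes, and 1 (IARS2) without the 4 libraries, beside 2.15% of all genes. GARS1 measured 224.5, 221.3 and 222.1 CPM there. Between high and low dose edgeR called 0 (6 members and 11% of genes with an unadjusted p below 0.05, DESeq2 0), beside 3.29% of all genes (1.56% higher, 1.72% lower), and 4 without the 4 libraries, beside 9.71%.

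The Coptidis Rhizoma high dose and the Aconiti Lateralis Radix Preparata medium dose, 110 and 100 µg/mL, were set side by side after their values were seen, since both had 14 members called. They share the vehicle libraries as control, so the likeness of their changes is not given as a result. In the direct test IARS1 (0.46 ± 0.15, edgeR adjusted p = 0.0419) and QARS1 (0.45 ± 0.1, edgeR adjusted p = 0.00255) were higher with Coptidis Rhizoma, beside 11% of all genes (6.3% higher, 4.68% lower). IARS1 measured 661.5 and 641.9 CPM with Coptidis Rhizoma and 474.1 and 476.6 CPM with the aconite extract, which lay above the vehicle range. QARS1 measured 103 and 103.7 against 76.4 and 74.4 CPM. The IARS1 call was lost without any 1 of these 4 treated libraries. Without the libraries that stood apart 7 members differed, beside 26.4% of all genes. This added LARS1 (0.21) higher and FARSA (-0.42), KARS1 (-0.26), RARS1 (-0.25) and AARS2 (-0.38) lower with Coptidis Rhizoma. With and without those libraries, the share of members that differed was below the share of all genes. That gap amounts to few members, so no result about the members is drawn from it. A fit on only the extracts compared called 14 members in this comparison. The extracts come from different library sets.

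Banhasasim-tang, a formula, has 1 library per dose, so its differences have no replicate check and no test. At the high dose 9 of the 12 ATF4-linked members were at least 25% above the vehicle mean, with a median of 1.52-fold, against 0 of the 7 other cytosolic and 0 of the 16 mitochondrial members; over all genes 23.5% passed upward, and 20.8% passed downward, at 80% of the vehicle mean or less. SARS1 was at 159.9 CPM (1.87-fold), AARS1 at 520.8 CPM (1.77-fold), GARS1 at 414 CPM (1.77-fold) and WARS1 at 229.7 CPM (1.72-fold). AARS1 was higher in this library than in any other of the 59. NARS1 (1.18-fold), LARS1 (1.11-fold) and TARS1 (1.01-fold) stayed under the threshold. Downward, RARS1 was at 123.3 CPM (0.721-fold) and 5 mitochondrial members passed: AARS2 at 9.42 CPM (0.682-fold), EARS2 at 38.1 (0.723-fold), MARS2 at 17.4 (0.725-fold), IARS2 at 175 (0.754-fold) and YARS2 at 31 (0.796-fold). At the medium dose 8 of the 12 ATF4-linked members passed upward (17% of all genes upward, 12.3% downward), GARS1 at 1.46-fold and SARS1 at 1.41-fold among them, and RARS1 (0.791-fold) was the 1 member that passed downward. At the low dose 0 of the 12 passed (14.9% of all genes upward, 10% downward), with CARS1 at 1.16-fold the largest. Mitochondrial rRNA took 15.2%, 11.5% and 3.87% of counts at the high, medium and low dose; its part was not tested.

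In the other extracts few members moved. At the Citri Unshius Pericarpium high dose edgeR called 0 members, beside 4.42% of all genes (3.52% higher, 0.905% lower). There, 10 members had an unadjusted p below 0.05, as had 25.7% of all genes, the lowest adjusted p was 0.0504 (SARS1), and DESeq2 called 5. The result turned on single libraries: edgeR called 10 members (and 4741 genes in all) without treated replicate 1, 9 (3084 in all) without replicate 2 and 0 (30 in all) without replicate 3, the library that stood furthest apart. Between its high and low dose CARS1 (0.47 ± 0.13, edgeR adjusted p = 0.0459) and QARS1 (0.29 ± 0.09, edgeR adjusted p = 0.0493) were higher, beside 3.54% of all genes (3.12% higher, 0.42% lower). CARS1 measured 71.3, 95.6 and 127 CPM at the high and 68.4, 77.2 and 66.7 CPM at the low dose, with overlap, and QARS1 104, 112.2 and 143.5 against 93.1, 101.8 and 99 CPM, without. Replicate 3 was highest in both genes. With the replicate number as a block 4 members were called; without the 4 libraries that stood apart 0 were. Without high dose replicates 1, 2 and 3 in turn the counts were 11, 8 and 0 (4405, 2607 and 7 genes in all), and 0 without any 1 low dose library. QARS1 was thus called in opposite directions in different comparisons: higher here and lower at the Aconiti Lateralis Radix Preparata medium dose.

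At the Citri Unshius Pericarpium medium dose edgeR called 0 members beside 0% of all genes (10 members and 13.8% of all genes with an unadjusted p below 0.05, DESeq2 0), and 10 members among 1805 genes without replicate 1. Replicate 2, which is not among the 4 libraries that stood apart, was far above replicate 1 there: AARS1 measured 271.8, 431.9 and 335.7 CPM in replicates 1 to 3, GARS1 223.2, 390.3 and 241.8 CPM, and KARS1 220.7, 332.3 and 258.3 CPM. At its low dose edgeR called 0 (1 member and 3.55% of genes unadjusted, DESeq2 0) beside 0.00539% of all genes. Cimicifugae Rhizoma had 0 members called at each dose (3, 2 and 2 members and 7.35%, 6.79% and 6.8% of genes unadjusted, DESeq2 0), beside 0.377% (0.151% higher, 0.226% lower), 0.0269% (0.0162% higher, 0.0108% lower) and 0% of all genes from high to low, and 0 between high and low dose (1 member and 8.57% of genes unadjusted, DESeq2 0), beside 0.221% (0.07% higher, 0.151% lower). At the Bupleuri Radix high dose IARS2 fell (-0.29 ± 0.07, edgeR adjusted p = 0.00955), beside 3.36% of all genes (2.05% higher, 1.31% lower). IARS2 measured 185.8, 189.5 and 193.9 CPM there, below all vehicle libraries; the call was lost without treated replicate 1 or 2 or vehicle replicate 2 or 3, and 3 members were called without the 4 libraries that stood apart, beside 14.3% of all genes. The medium and low doses had 0 called (2 and 5 members and 7.11% and 7.36% of genes unadjusted, DESeq2 0), beside 0.00539% and 0% of all genes, as did high against low (1 member and 7.57% of genes unadjusted, DESeq2 0), beside 1.58% (1.02% higher, 0.56% lower).

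Yijung-tang had 0 members called at its high dose with edgeR (3 members and 10.9% of genes unadjusted, DESeq2 1), beside 1.37% of all genes (0.781% higher, 0.587% lower). The 3 were AARS1 (0.29), RARS1 (-0.28) and IARS2 (-0.28, edgeR adjusted p = 0.057), and AARS1 at 367 and 355.6 CPM lay above the vehicle range. Without the 4 libraries that stood apart 4 members were called, beside 9.11% of all genes. Its medium and low doses had 0 (1 member each and 3.51% and 4% of genes unadjusted, DESeq2 0), beside 0.0108% and 0% of all genes, and high against low dose 0 (3 members and 5.01% of genes unadjusted, DESeq2 0), beside 0.431% (0.285% higher, 0.145% lower).

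IARS2 and RARS1 shared a feature that the calls show only in part. IARS2 lay at 228.1 to 234.6 CPM in the vehicle and at 175 to 230.9 CPM in the 56 treated libraries (median 201.5), 55 of which were below the lowest vehicle library and none above the highest. RARS1 lay below the lowest vehicle library (169 CPM) in 52 of 56 treated libraries and above the highest in 4, with a range of 123.3 to 229.8 CPM. In the opposite direction the mitochondrial seryl enzyme SARS2 exceeded the highest vehicle library (49.9 CPM) in 45 of 56. These shifts were present in extracts and doses in which few genes were called, and with 1 set of 3 vehicle libraries a property of that set cannot be told apart from an effect common to all extracts.

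Summed over the 12 ATF4-linked members, the level was 2618.5 ± 34.3 CPM in the vehicle (SD, n = 3), 3946 ± 79.2 CPM at the Coptidis Rhizoma high dose (n = 2) and 3567.7 ± 27 CPM at the Aconiti Lateralis Radix Preparata medium dose (n = 2). The Coptidis Rhizoma medium and low doses gave 3665.4 and 3385.1 CPM, and the Banhasasim-tang high dose library 3797 CPM. The 7 other cytosolic members summed to 911.7 ± 16.3 CPM in the vehicle, 837 CPM at the Coptidis Rhizoma high dose and 895.7 CPM at the aconite medium dose. The 16 mitochondrial members summed to 634.6 ± 2.68, 578.6 and 588.7 CPM in the same order. Their sum was also lower in groups without such an ATF4-linked rise, such as the Bupleuri Radix high (584.6) and low dose (591.8). It exceeded the vehicle mean only at the Zizyphi Fructus medium dose (637) and the Citri Unshius Pericarpium medium dose (640.8). The ratio of cytosolic to mitochondrial sums was 5.56 ± 0.0334 in the vehicle, 8.27 ± 0.16 at the Coptidis Rhizoma high dose and 7.58 at the aconite medium dose. It was 8.66 in the Banhasasim-tang high dose library and 5.49 at the Zizyphi Fructus high dose. Most other groups lay above the vehicle mean too, among them the Yijung-tang high dose (6.46) and the aconite high dose (6.4). Only the Zizyphi Fructus high dose and the Yijung-tang low dose (5.55) lay under it. A single library of another extract, replicate 2 of the Citri Unshius Pericarpium medium dose, reached 3640 CPM for the ATF4-linked members, with 1166.3 CPM for the other cytosolic and 695 CPM for the mitochondrial members, so its 3 sums were all above the vehicle; replicates 1 and 3 of that dose had ATF4-linked sums of 2517.8 and 2564.8 CPM. These sums follow from the member values above and carry no test.

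**Figure D4:**
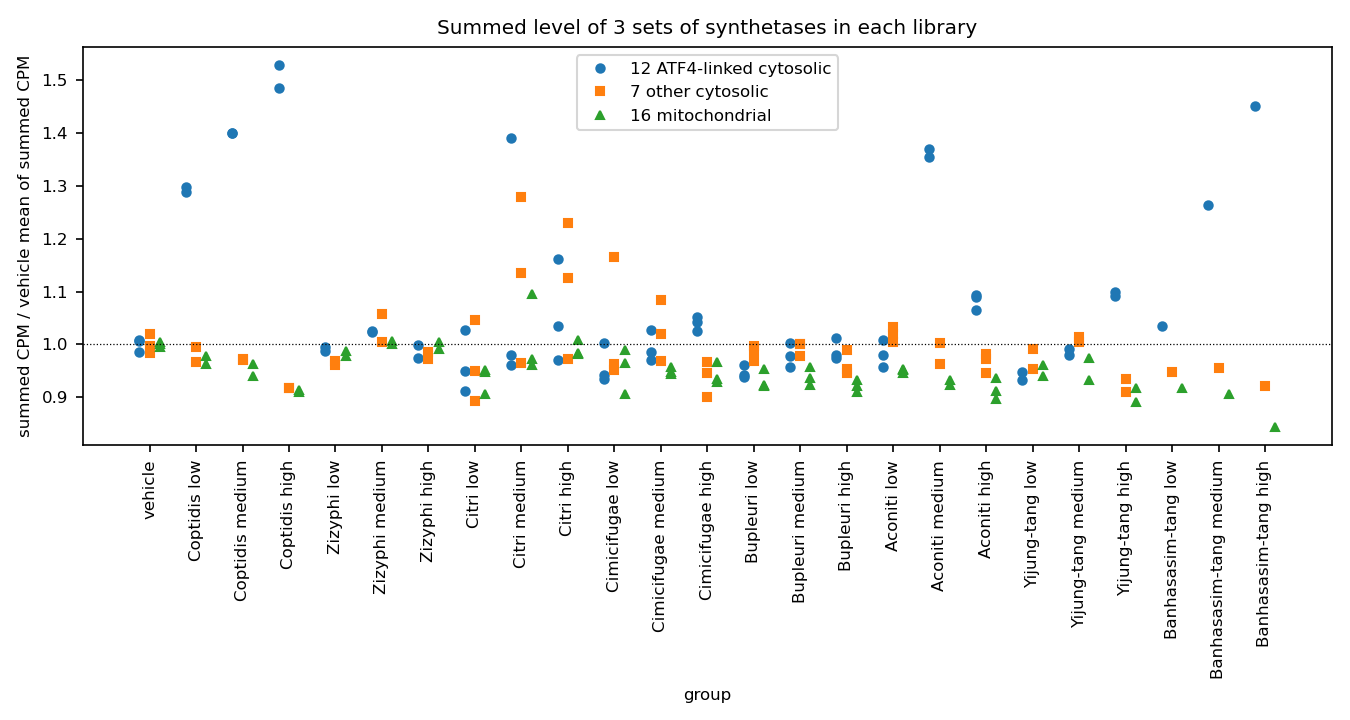
Summed CPM of the 12 ATF4-linked, 7 other cytosolic and 16 mitochondrial members in each library, divided by the vehicle mean of the same sum, by group. The ATF4-linked sum is clearly above 1 in all Coptidis Rhizoma libraries and in the Aconiti Lateralis Radix Preparata medium dose libraries. It is also clearly above 1 in the Banhasasim-tang high and medium dose libraries. The mitochondrial sum is below 1 in these libraries, and also in most of the other treated groups. The high point of the Citri Unshius Pericarpium medium dose is replicate 2, whose mitochondrial sum is above 1 as well.

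For an amino acid served by separate genes, the ratio of the cytosolic to the mitochondrial enzyme per kb shows how far a pair diverged. AARS1 stood at 23.7 ± 0.859 times AARS2 in the vehicle (SD, n = 3), at 58.1 times at the Coptidis Rhizoma high dose, 38.8 times at the aconite medium dose and 61.3 times in the Banhasasim-tang high dose library. For isoleucine the ratio went from 1.39 in the vehicle to 2.49, 1.89 and 2.74 in the same order, and for serine from 1.98 to 3.8, 3.08 and 3.41. In these 3 pairs the ratio was higher in each of the 3 treatments. For arginine it was 6.27 in the vehicle and 5.04, 5.84 and 4.42 in the treatments, lower in each. At the aconite high dose the arginine ratio was 5.34 and the isoleucine ratio 1.68. RARS1 and IARS2 lay below the lowest vehicle library in 52 and 55 of the 56 treated libraries. Changes in these 2 ratios are thus not particular to the 3 treatments. Nor is a higher alanine ratio, which was 27.7 at the aconite high dose and 35.6 at the Coptidis Rhizoma low dose. AARS2 lay below the lowest vehicle library in 39 of the 56 treated libraries. The serine ratio at the aconite high dose, 2.24, overlapped the vehicle. The histidine ratio (2.41, then 2.28, 2.22 and 2.5) and the valine ratio (5.53, then 5.32, 5.43 and 5.43) stayed close to the vehicle. HARS1 and HARS2 lie head to head on chromosome 5 and overlap by 437 bp on opposite strands.

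Over the 31 comparisons 18 members were called at least once, 15 cytosolic and 3 mitochondrial (AARS2, EARS2 and IARS2). The other 17 were called in none: FARSA, FARSB, HARS1 and KARS1, and the mitochondrial CARS2, FARS2, HARS2, LARS2, MARS2, NARS2, PARS2, RARS2, SARS2, TARS2, VARS2, WARS2 and YARS2. Of these, MARS2 and YARS2 lay below the lowest vehicle library in 47 of the 56 treated libraries each and NARS2 in 45. A member that was not called may still have changed by less than these library numbers can resolve. The share of all genes called at least once over these comparisons was not computed. At the Aconiti Lateralis Radix Preparata medium dose alone, 17.5% of all genes were called. The counts of members called at least once are therefore a description. They do not show whether members were called more often than other genes.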

How the data were processed

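Directional, paired-end mRNA libraries of A549 cells were sequenced, per the labels' protocols. The authors deposited RSEM expected counts for 60675 Ensembl genes, of which 84.4% of values were whole. Per the submitters' processing notes, the tools were RSEM 1.3.3, STAR 2.7.3a, Trim Galore 0.6.5 and FastQC 0.11.9 with the build hg38 (GRCh38); no source used here gives the annotation release. Of the table's columns, 59 matched samples, and 210 others were not used. Vehicle DMSO is 0.1% in the labels but 2% in the series text.

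Here the expected counts were rounded, filtered (edgeR filterByExpr, minimum count 10, minimum total 15) and scaled by TMM. EdgeR 4.0.16 (R 4.3.3) fitted 25 group means over all 59 libraries (34 residual degrees of freedom) and 31 comparisons were tested with the quasi-likelihood test and Benjamini-Hochberg adjustment over all 18568 genes; the comparison of Coptidis Rhizoma high with Aconiti Lateralis Radix Preparata medium dose was added after seeing the data. The fit was tested on simulated counts with changed genes at the Coptidis Rhizoma high dose only. These counts had the same spread for all genes and no libraries that stood apart, so the test does not cover that feature of the data. CPM are scaled by TMM, except where called unscaled, and levels per kb use the longest principal GENCODE 29 transcript. Positions are GRCh38. Members and gene lists were chosen with earlier results of these data known. Named members are those called in the comparisons with most calls (up to 8 cytosolic and 6 mitochondrial by size of change), the 3 highest and 3 lowest per length, and up to 5 called in each direction elsewhere; all 35 are accounted for.

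Replicate numbers are in the labels with no statement that they pair libraries. Between the Citri Unshius Pericarpium high and low dose, same-numbered libraries deviated together (correlations of 0.12 to 0.24 in 3 pairs), so the block is given beside that result. Alternatives were DESeq2 1.42.0, RLE size factors, no filter and a replicate block. Others left out each replicate, the 4 libraries that stood apart, or every extract not compared. The last of these kept all doses of each extract compared, and the vehicle only where it was compared.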

Additional observations from a re-analysis of the deposited data

How the results depend on the processing

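The number of members called in each comparison was recomputed under each alternative, and no member that was called changed sign. Counts that moved by over 1.5 times are given. Without the low-count filter they were 0 at the Aconiti Lateralis Radix Preparata high dose, 8 at its medium dose and 3 between these, 0 at the Bupleuri Radix high dose, 3 at the Citri Unshius Pericarpium high dose and 4 against its low dose, 1 at the Coptidis Rhizoma low dose and 0 for Coptidis Rhizoma high against the aconite medium dose. Smaller moves without the filter took the Coptidis Rhizoma high dose from 14 to 10, its medium dose from 10 to 7 and its high dose against Zizyphi Fructus from 13 to 9. Next, the fit held all doses of only the extracts compared, and the vehicle where it was compared. The counts were then 8, 3, 16 and 8 for the aconite extract (high, low, medium against high, high against low). They were 6, 4, 5 and 1 for Bupleuri Radix (high, medium, low, high against low) and 0 for Citri Unshius Pericarpium high against low. For Coptidis Rhizoma they were 16, 14 and 18 (medium, low, high against low), and 14 for its high dose against the aconite medium dose. Counts for Yijung-tang were 10, 1 and 8 (high, low, high against low). Without the 4 libraries that stood apart they were 3, 1, 14 and 4 for the aconite extract in the same order, 3, 1 and 2 for Bupleuri Radix (high, medium, low), 1 and 1 for Cimicifugae Rhizoma (high, medium), 1 and 0 for Citri Unshius Pericarpium (medium, high against low), 10 and 5 for Coptidis Rhizoma (low, high against low), 7 for Coptidis Rhizoma high against the aconite medium dose, and 4 and 2 for Yijung-tang (high, high against low). DESeq2 gave 5 and 8 for Citri Unshius Pericarpium (high, high against low), 5 and 1 for Coptidis Rhizoma (low, high against low) and 1 for Yijung-tang high. RLE size factors gave 2 for Citri Unshius Pericarpium high. Leaving out 1 replicate at a time gave 0 for the aconite high dose, 9 to 12 for its medium dose and 1 to 5 for medium against high, 0 to 1 for Bupleuri Radix high, 0 to 10 for Citri Unshius Pericarpium high and medium and 0 to 11 for its high against low dose, 3 to 9 and 0 to 1 for Coptidis Rhizoma medium and low, and 1 for Coptidis Rhizoma high against the aconite medium dose. Where 1 library was left in a group, it is assumed to vary like the other groups. Samples share only a replicate number except between the Citri Unshius Pericarpium high and low dose, where the replicate block gave 4; elsewhere the block gave 2 for Citri Unshius Pericarpium high and 1 for Yijung-tang high and moved no other count by over 1.5 times. In those other comparisons at least 1 pair of same-numbered libraries had a correlation of their deviations at or under 0.1, or there were only 2 pairs. Of 715 values of single members under an alternative, 134 lost the call in the same direction. The cause of these moves was not tested. The number of libraries per group, 2 or 3, limits the size of change that could be called.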
